A study of Mus musculus with 24 samples.

Results

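The 10 Wnt ligand genes described here (Wnt4, Wnt5a, Wnt5b, Wnt9a, Wnt2b, Wnt2, Wnt11, Wnt16, Wnt10a and Wnt10b) were taken by gene symbol from a table of read counts for 24537 genes in whole mouse muscles. All 24 libraries were used, and each of the 10 genes had 1 row in the table. The study asked what the reprogramming factors Oct4, Sox2, Klf4 and c-Myc (OSKM) do to muscle when they are switched on in the muscle fibre, and it chose Wnt4 as a niche factor on these same samples, so the change of Wnt4 in these libraries is not independent evidence of its direction.

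Every mouse carried 4Fhet, that is the doxycycline-dependent OSKM cassette together with a reverse transactivator kept silent by a LoxP-flanked stop, and every mouse drank doxycycline (Dox, 1 mg/ml). Cre+ mice also carried Acta1-Cre, which removes the stop under a skeletal muscle actin promoter and so confines the cassette to muscle fibres. Cre- mice without the recombinase were the controls and received the same Dox. Mice were 2 months old, Dox was given for 2.5 days, 5.5 days or 8.5 days, and the fast extensor digitorum longus (EDL) and the slow soleus (SOL) were sequenced as whole muscles, with 2 libraries in each of the 12 groups. The study calls the libraries of a group independent biological samples, but the labels do not tie them to separate mice. With 2 libraries in a group, the tests use an estimate of the spread that all groups of a fit share. That spread is between libraries of the same group, and it is not known to be a spread between mice. Between 36088781 and 54679082 reads were counted per library. In whole muscle, fewer cells of a type and less RNA per cell cannot be told apart.

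Wnt proteins are secreted, lipid-modified signals that bind Frizzled receptors together with co-receptors such as Lrp5, Ryk or Ptk7. Depending on the receptor and the cell, they stabilise β-catenin, which then acts with Tcf and Lef factors on target genes, or they act through planar polarity proteins without β-catenin. In skeletal muscle, ligands of this family are known from the formation of the limb, from the choice between muscle, fat and connective tissue fates, and from the control of satellite cells, the stem cells that lie on the fibre.

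The stretches of 250 bases upstream of the annotated start are shown for the 4 ligands that changed in Cre+ EDL muscles, and for Wnt11, the other ligand whose window held a searched motif besides Wnt9a. They are RefSeq sequences on GRCm38.p6, the build of the count table, written 5′ to 3′ on the strand of the gene, with matches to the searched motifs in capitals. A window whose start was that of the counted transcript was found for 8 of the 10 ligands.
Wnt4, chr4:137277385-137277634, + strand: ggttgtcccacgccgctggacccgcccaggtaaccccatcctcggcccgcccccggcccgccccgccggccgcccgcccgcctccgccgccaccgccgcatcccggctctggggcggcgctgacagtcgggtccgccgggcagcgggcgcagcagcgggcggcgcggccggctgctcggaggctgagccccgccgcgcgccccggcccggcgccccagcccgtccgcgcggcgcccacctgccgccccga
Wnt9a, chr11:59306680-59306929, + strand: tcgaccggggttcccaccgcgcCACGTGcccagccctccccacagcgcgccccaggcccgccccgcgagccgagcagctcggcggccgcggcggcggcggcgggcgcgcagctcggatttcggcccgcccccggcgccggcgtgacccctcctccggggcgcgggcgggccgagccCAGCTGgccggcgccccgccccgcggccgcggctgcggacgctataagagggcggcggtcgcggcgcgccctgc
Wnt5b, chr6:119544348-119544597, - strand: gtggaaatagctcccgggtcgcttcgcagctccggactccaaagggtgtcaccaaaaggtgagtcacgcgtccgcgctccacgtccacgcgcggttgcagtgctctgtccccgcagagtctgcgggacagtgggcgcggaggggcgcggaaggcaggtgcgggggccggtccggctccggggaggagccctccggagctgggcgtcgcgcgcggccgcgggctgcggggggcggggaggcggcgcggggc
Wnt2b, chr3:104961710-104961959, - strand: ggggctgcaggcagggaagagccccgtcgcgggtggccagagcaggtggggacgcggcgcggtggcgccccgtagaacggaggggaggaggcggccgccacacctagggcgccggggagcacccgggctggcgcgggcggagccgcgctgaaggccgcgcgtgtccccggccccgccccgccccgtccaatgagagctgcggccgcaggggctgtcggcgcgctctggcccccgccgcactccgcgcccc
Wnt11, chr7:98834862-98835111, + strand: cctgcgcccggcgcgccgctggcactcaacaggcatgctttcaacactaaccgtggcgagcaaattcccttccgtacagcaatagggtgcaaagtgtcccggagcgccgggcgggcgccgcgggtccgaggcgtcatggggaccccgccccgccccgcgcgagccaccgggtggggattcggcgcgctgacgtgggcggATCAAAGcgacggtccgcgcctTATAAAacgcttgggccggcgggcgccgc

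The motifs were the TATA box TATAAA, the E-boxes CACGTG and CAGCTG, the E2F sites TTTCCCGC, TTTCGCGC, TTTGCCGC and TTTGGCGC, and the TCF/LEF sites CTTTGAT and CTTTGAA, each searched on both strands from 250 bases before to 50 after the start. The Wnt4 window, on chromosome 4, held none of them and was 84.3% G and C, against a median of 52.7% over 32817 RefSeq windows. The Wnt5b and Wnt2b windows held none either. Wnt9a had both E-boxes, and Wnt11 had a TATA box that began 29 bases before the start and 1 TCF/LEF match. Over all windows, 13.6% held the TATA box, 7.15% CACGTG, 16.3% CAGCTG, 2.26% an E2F site and 8.65% a TCF/LEF site. A match is a run of letters and not a measured binding site. The study tested binding of the cell cycle inhibitor p21 at a TATA-proximal region of the Wnt4 promoter. It reports enrichment of the region with overexpressed p21. It also reports that p21 lowered a reporter holding the region, and lowered Wnt4 in muscle. The primers it lists for that region do not lie in the Wnt4 window, and no motif was searched at those primers.

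In the muscles of Cre- mice, the 10 ligands spanned levels from 0.0342 to 13.5 FPKM (counted reads per kilobase of exon, scaled to the total count of the library, which allows genes to be compared per length). In EDL the order by median over 6 Cre- libraries was Wnt4, Wnt9a, Wnt11, Wnt5a, Wnt5b, Wnt16, Wnt10b, Wnt2, Wnt10a and Wnt2b. Wnt4 led it, with 6.20 FPKM in the lowest library, a median of 9.82 and 13.5 in the highest. In that order only Wnt9a and Wnt11, and Wnt11 and Wnt5a, had ranges that did not overlap, so the other neighbours, Wnt4 and Wnt9a included, were not separated beyond their spread. In SOL the order was Wnt9a, Wnt5b, Wnt11, Wnt5a, Wnt4, Wnt16, Wnt10b, Wnt2, Wnt10a and Wnt2b, and only Wnt5b and Wnt11 were separated. Wnt4 was the fifth there, with 0.747, 1.37 and 3.32 FPKM as the lowest, median and highest of the 6 libraries. Wnt4 made up 28.5% to 42.5% of the summed FPKM of the 10 ligands in Cre- EDL libraries and 4.40% to 12.9% in Cre- SOL libraries.

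**Figure D1:**
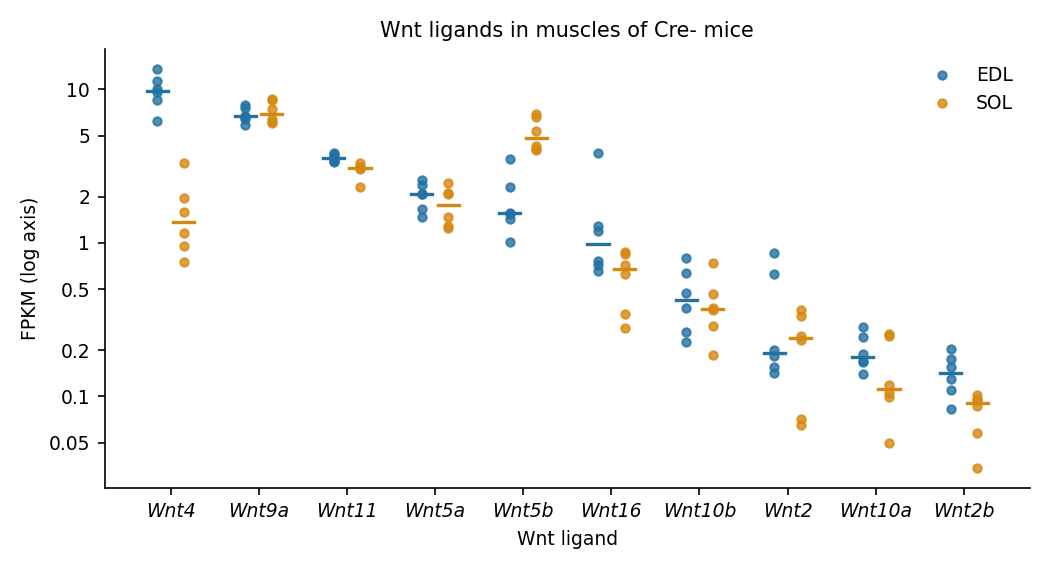
Level of each Wnt ligand in FPKM (log axis) in the 12 muscles of Cre- mice, with 6 EDL libraries in blue and 6 SOL libraries in orange. Points are libraries and bars are medians. Wnt4 stands higher in every EDL library than in any SOL library, and Wnt5b lower.

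Of the other 9 Wnt ligand genes in the table, Wnt6 (0.245 to 0.823 FPKM over the Cre- libraries) and Wnt7b (0.0145 to 0.178) passed the filter on low counts. Wnt6 was higher in EDL than in SOL of Cre- mice (log2 fold change 0.86 ± 0.24 SE, adjusted p = 0.00786, edgeR), and neither gene was called between Cre+ and Cre- in any muscle or at any time. Wnt1, Wnt3, Wnt3a, Wnt7a, Wnt8a, Wnt8b and Wnt9b were too low to be tested.

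The comparison of EDL with SOL in Cre- mice asked whether the ligands differ between a fast and a slow muscle without the reprogramming factors. Changes here and below are log2 fold changes from edgeR's quasi-likelihood test on counts scaled by the trimmed mean of M-values (TMM), with the standard error, and a gene was called at an adjusted p below 0.05 with a log2 fold change beyond 0.5 in size. Wnt4 was higher in EDL by 2.78 ± 0.19 (adjusted p = 3.35e-09), a 6.88-fold difference, and no EDL library overlapped a SOL library. Wnt16, a ligand known from bone and cartilage, was higher by 1.27 ± 0.32 (adjusted p = 0.00426), although the EDL libraries (0.655 to 3.86 FPKM) and the SOL libraries (0.279 to 0.868) overlapped. Wnt2 was higher by 0.72 ± 0.20 (adjusted p = 0.00692), although the EDL libraries (0.143 to 0.858 FPKM) and the SOL libraries (0.0654 to 0.365) overlapped. After 2.5 days Wnt2 was instead lower in EDL, at 0.183 and 0.156 FPKM against 0.245 and 0.231 in SOL. Wnt5b, which signals largely without β-catenin, was called lower in EDL, by 1.44 on the log2 scale (SE 0.16, adjusted p = 1.57e-06). In all, 3 of the 10 ligands were called higher and 1 lower, where 11.6% of 15478 genes tested were called higher and 13.3% lower. Wnt11 differed by 0.34 ± 0.09 (adjusted p = 0.00361) and was not called because the difference was smaller than the fold threshold. The difference of Wnt9a was 0.03 ± 0.10, with a 95% interval from -0.18 to 0.23.

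The labelled muscles carried the fibre markers of their type. All 6 fast fibre markers were higher in EDL and all 6 slow fibre markers higher in SOL. Markers of adipocytes (5 of 5) and satellite cells (4 of 6) were lower in EDL, and markers of Schwann cells (5 of 6) were higher, where 11.6% of all genes were called higher and 13.3% lower. Of 8 genes known to rise in denervated muscle, 5 were lower in EDL. The summed level of the adipocyte markers ranged from 11.1 to 51.2 FPKM in Cre- EDL and from 34.2 to 407 in Cre- SOL libraries, and none of the adipocyte, satellite or Schwann cell markers was at 0 in any library. The part of these cells in the difference of Wnt4 and Wnt5b between muscles was not tested.

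OSKM were measured first in the Cre+ muscles, where counts do not separate the cassette from the endogenous genes. Pou5f1, which encodes Oct4, had 1129 and 4206 reads in Cre+ EDL after 2.5 days, 64 and 1686 after 5.5 days and 5439 and 3683 after 8.5 days, against at most 5 in any Cre- library. In Cre+ SOL it had 313 and 531 reads after 2.5 days, 4 and 22 after 5.5 days and 857 and 414 after 8.5 days. After 5.5 days Pou5f1 was thus low in 3 of the 4 Cre+ libraries, and the study set the 5.5-day samples aside as outliers. They are described apart from the other time points here.

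Wnt4 was 5.37-fold lower in Cre+ than in Cre- EDL muscles after 2.5 days of Dox and 6.17-fold lower after 8.5 days. At 2.5 days the Cre- libraries had 8.50 and 6.20 FPKM (1432 and 1080 reads) and the Cre+ libraries 1.50 and 1.95 (273 and 330 reads). At 8.5 days the Cre- libraries had 13.5 and 11.4 FPKM and the Cre+ libraries 2.08 and 2.48. The genotypes did not overlap at either time, and both Cre+ pairs lay far below the Cre- pair of their day. The log2 fold changes were -2.42 ± 0.28 (adjusted p = 8.72e-05) and -2.63 ± 0.28 (adjusted p = 6.81e-05). The share of Wnt4 in the summed FPKM of the 10 ligands was 28.5% and 32.7% in Cre- EDL after 2.5 days and 7.69% and 8.88% in Cre+ EDL. After 8.5 days it was 37.4% and 40.2% in Cre- and 11.3% and 13.6% in Cre+ EDL.

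**Figure D2:**
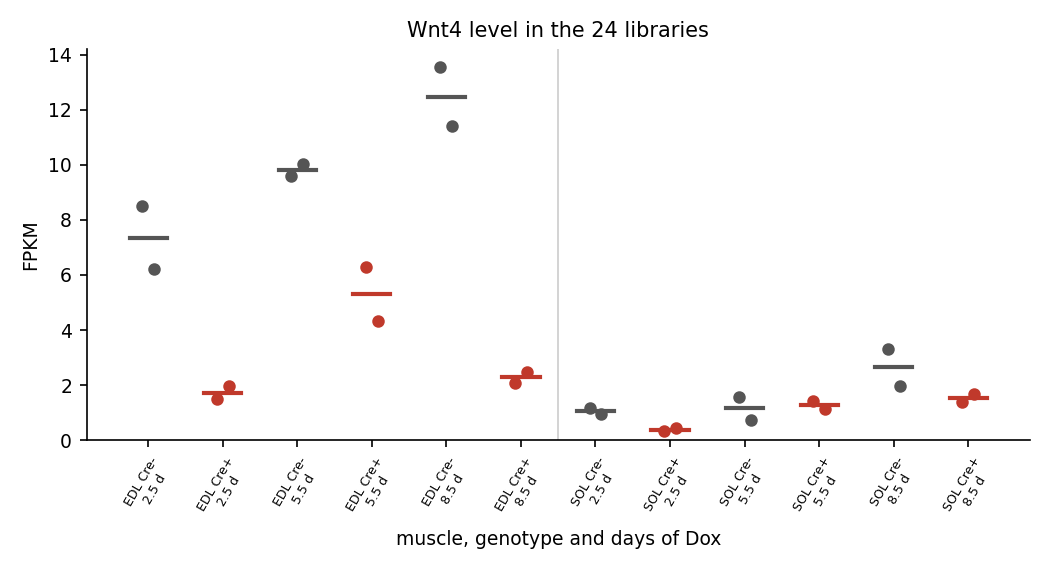
Wnt4 level in FPKM in each of the 24 libraries, by muscle, genotype and days of Dox, with Cre- in grey and Cre+ in red. Points are libraries and bars are the means of 2. Cre+ EDL libraries sit between 1.50 and 2.48 FPKM after 2.5 and 8.5 days and at 4.33 and 6.29 after 5.5 days, while Cre- EDL libraries sit between 6.20 and 13.5.

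In SOL, where Wnt4 was low in the controls, it was 1.15 and 0.951 FPKM in Cre- and 0.317 and 0.441 in Cre+ muscles after 2.5 days. The groups did not overlap, and the log2 fold change was -1.63 ± 0.31 (adjusted p = 0.0452), a 3.10-fold difference. This call rested on every one of its 4 libraries: leaving out any 1 of them gave log2 fold changes from -1.88 to -1.41 with adjusted p from 0.119 to 0.301. After 8.5 days Wnt4 was 3.32 and 1.97 FPKM in Cre- and 1.38 and 1.68 in Cre+ SOL, without overlap, and the log2 fold change of -0.83 ± 0.27 was not called (adjusted p = 0.403, 95% interval -1.42 to -0.25).

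The change of Wnt4 in EDL was compared with its change in SOL directly. At 2.5 days the difference of the changes was -0.79 ± 0.41 (adjusted p = 0.290) and was not called. At 8.5 days it was -1.79 ± 0.38 (adjusted p = 0.0627). EDL and SOL libraries of the same number deviated together from their group means in every group, so the numbers were also used as a block, and in that fit the difference at 8.5 days was -1.84 (adjusted p = 0.00810). DESeq2 (-1.80, adjusted p = 0.000801) and edgeR without the filter on low counts (-1.80, adjusted p = 0.0190) also called it without a block. By edgeR with the filter and no block, none of the 10 ligands was called in either difference, where 4.25% of genes tested were called at 2.5 days and 0.592% at 8.5 days, and 3 ligands had an unadjusted p below 0.05 at each time. DESeq2 called Wnt2b in the difference at 2.5 days (3.44, adjusted p = 0.0113).

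Over the 12 groups, the mean of Wnt4 ran from 12.5 FPKM in Cre- EDL after 8.5 days to 0.379 in Cre+ SOL after 2.5 days. Cre+ EDL muscles after 2.5 and 8.5 days, at 1.72 ± 0.32 and 2.28 ± 0.28 FPKM (SD, n = 2), fell in the range of the Cre- SOL groups, from 1.05 ± 0.14 to 2.64 ± 0.95. Of neighbours in that order, Cre- EDL at 8.5, 5.5 and 2.5 days were the highest 3 groups, and the first 2 did not overlap their next neighbours. In Cre- mice the EDL library had 4.08 to 13.4 times the FPKM of the SOL library with the same number. In Cre+ mice this ratio was 4.72 and 4.43 after 2.5 days, 4.39 and 3.78 after 5.5 days and 1.50 and 1.48 after 8.5 days. Between 2.5 and 8.5 days, Wnt4 of Cre- EDL differed by 0.71 ± 0.26, which was not called (adjusted p = 0.267). In that comparison of Cre- EDL muscles, 0.748% of genes were called, among them 1 ligand, Wnt2.

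Among the other ligands, Wnt9a and Wnt5b were lower and Wnt2b was higher in Cre+ EDL muscles. In all, 1 of the 10 ligands was called higher and 3 lower after 2.5 days, where 13.8% of 15372 genes tested were called higher and 10.2% lower. After 8.5 days none was called higher and 3 were called lower, the same Wnt4, Wnt9a and Wnt5b, where 7.63% of genes were called higher and 6.5% lower. The median log2 fold change of the 10 ligands was -0.39 at 2.5 days and -0.47 at 8.5 days, against -0.05 and -0.02 over all genes tested. The values depend on TMM: with the total count alone as the scale, the median of all genes moved to 0.28 at 2.5 days and 0.16 at 8.5 days, and the share of called genes that were higher moved from 57.5% to 87.3% and from 54.0% to 78.3%. FPKM values are on the scale of the total count, so ratios of FPKM sit above the fitted changes in Cre+ EDL.

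**Figure D3:**
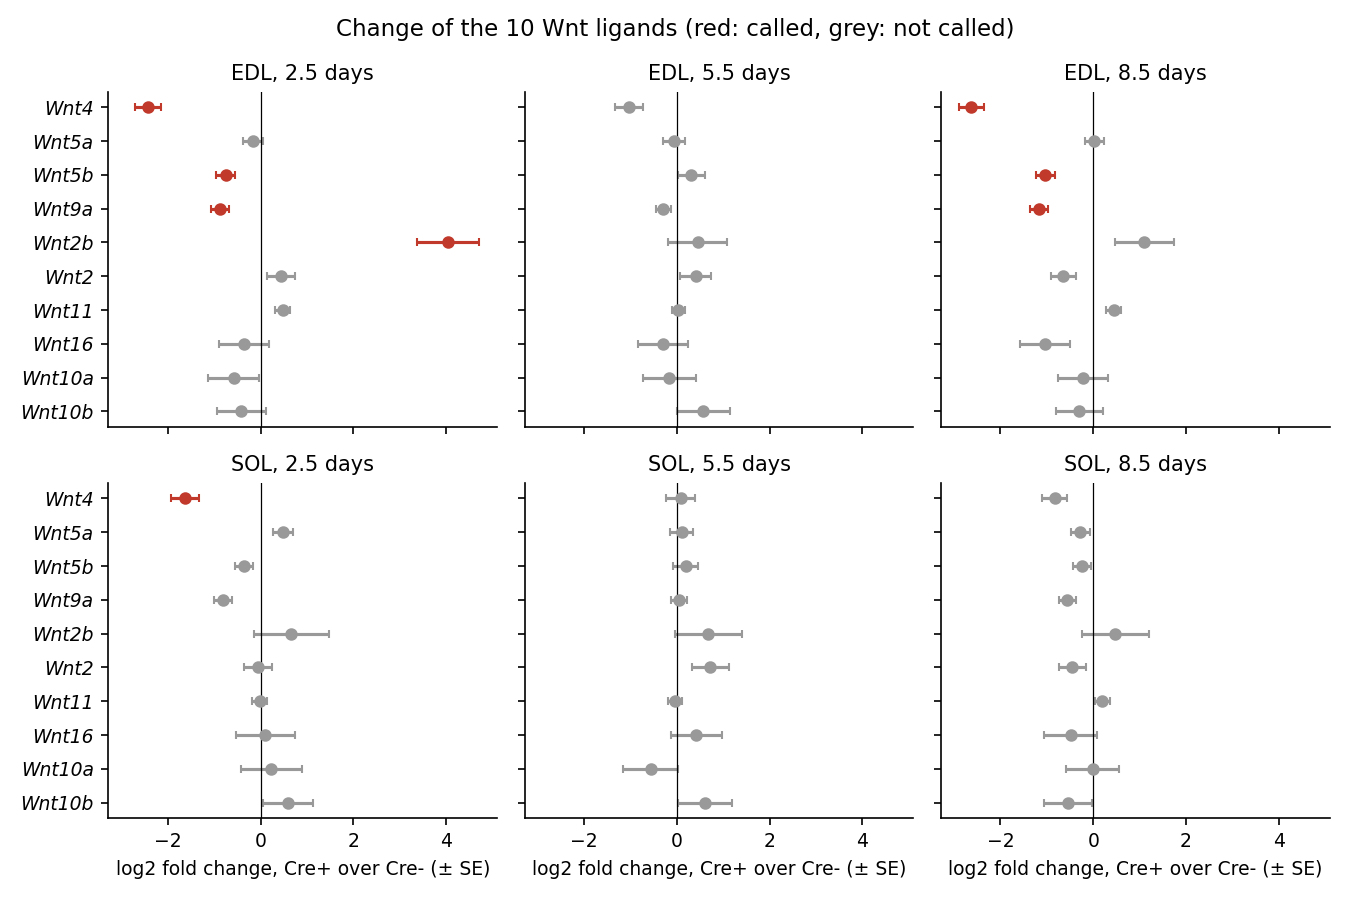
Log2 fold change of Cre+ over Cre- for the 10 ligands in each muscle and time, with bars of 1 standard error, red where called and grey where not. Wnt4 sits at -2.42 and -2.63 in EDL at 2.5 and 8.5 days, Wnt9a and Wnt5b to the left of 0 and Wnt2b at 4.04 in EDL at 2.5 days. No ligand is red at 5.5 days.

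Wnt9a, a ligand known from joint formation and among the most abundant Wnts in both muscles, was 7.62 and 6.62 FPKM in Cre- and 5.11 and 4.63 in Cre+ EDL after 2.5 days. After 8.5 days it was 7.96 and 6.37 in Cre- and 3.18 and 3.96 in Cre+ EDL. The groups did not overlap at either time. The log2 fold changes were -0.87 ± 0.19 (adjusted p = 0.00485) and -1.18 ± 0.19 (adjusted p = 0.00181). Without the second Cre+ library of 2.5 days the first was -0.76 and missed the threshold (adjusted p = 0.0577). In SOL, Wnt9a was 7.49 and 6.37 FPKM in Cre- and 3.95 and 4.84 in Cre+ after 2.5 days, a log2 fold change of -0.81 ± 0.19 that was not called by edgeR (adjusted p = 0.108) and was called by DESeq2 (-0.83, adjusted p = 0.00594). After 8.5 days in SOL it was -0.56 ± 0.19 (adjusted p = 0.463).

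Wnt5b was 1.55 and 1.58 FPKM in Cre- and 1.12 and 1.21 in Cre+ EDL after 2.5 days, and 3.53 and 2.32 in Cre- and 1.90 and 1.34 in Cre+ EDL after 8.5 days. Cre+ was below Cre- of the same day at both times. In Cre- EDL the mean was 1.56 FPKM after 2.5 days, 1.22 after 5.5 days and 2.92 after 8.5 days. The Cre+ mean after 8.5 days was 1.62, not below the Cre- means of 2.5 and 5.5 days. Between 2.5 and 8.5 days, Wnt5b of Cre- EDL differed by 0.84 ± 0.20. This difference was not called by edgeR (adjusted p = 0.0820) and was called by DESeq2 (0.85, adjusted p = 0.0112). The log2 fold change of Cre+ over Cre- was -0.75 ± 0.21 at 2.5 days (adjusted p = 0.0171) and -1.03 ± 0.20 at 8.5 days (adjusted p = 0.00462). The first call ended when any 1 of its 4 libraries was left out (adjusted p from 0.0555 to 0.0855) and with the total count as the scale (-0.42, adjusted p = 0.171). The table's Wnt5b locus on chromosome 6 holds Fbxl14 on the opposite strand, and the strand setting of the count is not given in the sources used here. In SOL, where Wnt5b was more abundant, it was -0.36 ± 0.19 at 2.5 days and -0.25 ± 0.19 at 8.5 days, neither called.

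Wnt2b was among the lowest ligands in controls and rose in Cre+ EDL after 2.5 days. It had 13 and 21 reads (0.0825 and 0.129 FPKM) in Cre- and 115 and 608 reads (0.674 and 3.85 FPKM) in Cre+ EDL, so both Cre+ libraries were above the controls and they differed widely from each other. The log2 fold change was 4.04 ± 0.68 (adjusted p = 0.000907), and without the second Cre+ library it was 2.38 (adjusted p = 0.0167). That library also had the more Pou5f1 reads of the pair. After 8.5 days Wnt2b was 26 and 23 reads in Cre- and 107 and 52 in Cre+ EDL, and the log2 fold change of 1.10 ± 0.64 was not called (adjusted p = 0.277). In Cre+ SOL it never exceeded 28 reads.

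**Figure D4:**
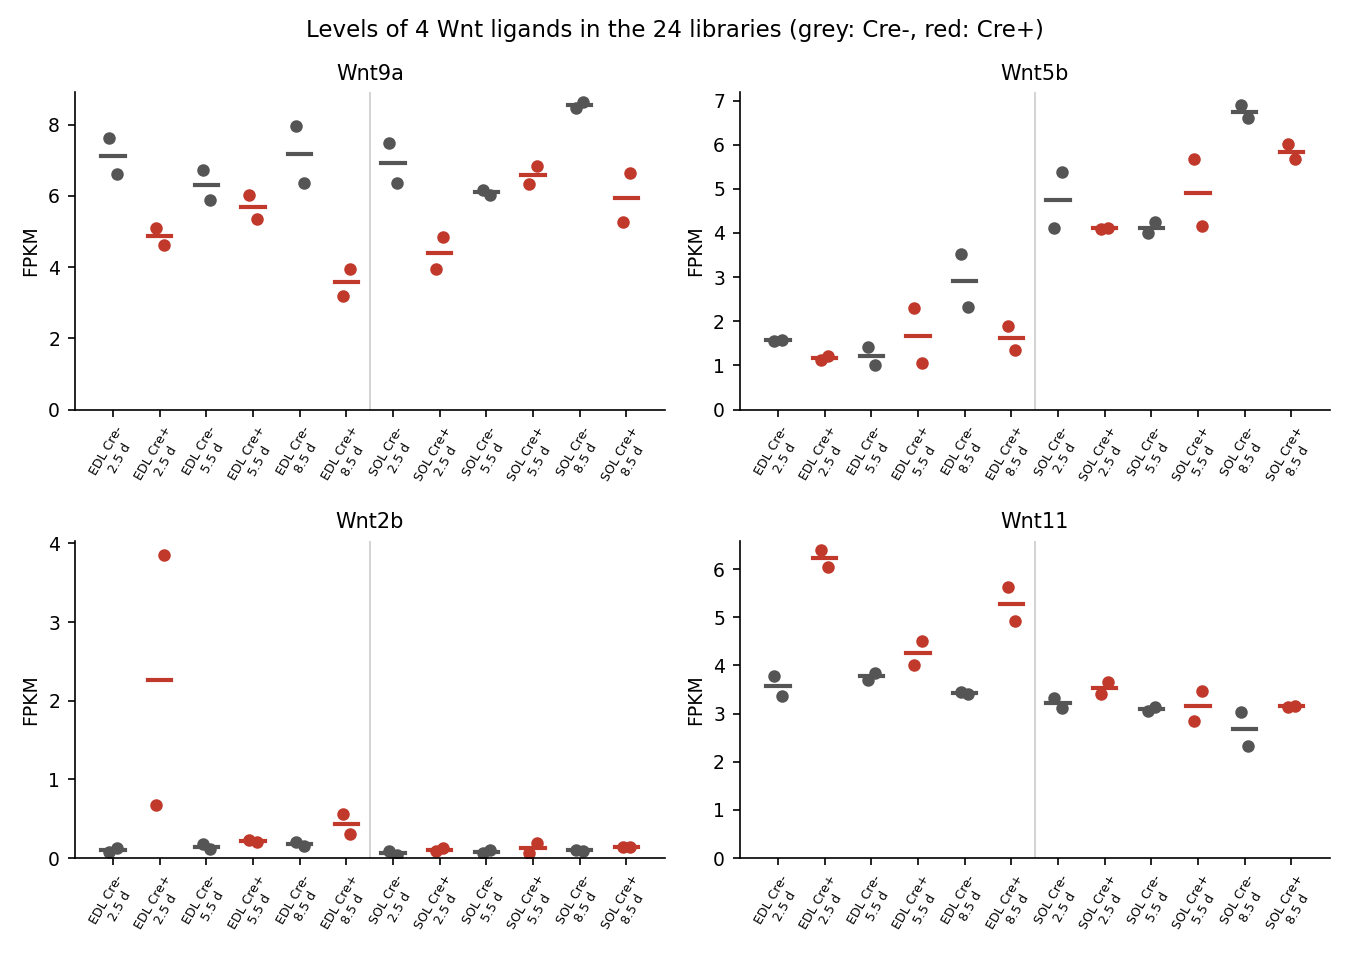
Levels of Wnt9a, Wnt5b, Wnt2b and Wnt11 in FPKM in each of the 24 libraries, with Cre- in grey, Cre+ in red and bars for the means of 2. At 2.5 and 8.5 days, Wnt9a and Wnt5b are lower and Wnt11 higher in the Cre+ than in the Cre- EDL libraries of the same day. Wnt2b is at 3.85 FPKM in 1 Cre+ EDL library of 2.5 days.

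Wnt11, a ligand of the planar polarity branch, was 3.79 and 3.36 FPKM in Cre- and 6.39 and 6.05 in Cre+ EDL after 2.5 days, and 3.45 and 3.40 against 5.62 and 4.92 after 8.5 days. Every Cre+ library was above every Cre- library of its day on this scale. After TMM the log2 fold changes were 0.47 ± 0.16 (adjusted p = 0.0399) and 0.44 ± 0.16 (adjusted p = 0.0793), and neither was called, the first because it was smaller than the fold threshold. With the total count as the scale they were 0.80 (adjusted p = 0.00138) and 0.62 (adjusted p = 0.0135), and both were called. In SOL, Wnt11 changed by -0.02 ± 0.16 after 2.5 days, with a 95% interval from -0.36 to 0.32.

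The other 5 ligands were not called between Cre+ and Cre- in either muscle. Wnt5a, which acts mostly without β-catenin, kept within 1.31 to 2.61 FPKM in Cre+ EDL and 1.47 to 2.58 in Cre- EDL, with log2 fold changes of -0.17 ± 0.21 after 2.5 days and 0.02 ± 0.21 after 8.5 days. Wnt2 was 0.183 and 0.156 FPKM in Cre- EDL after 2.5 days and 0.631 and 0.858 after 8.5 days, a log2 difference between the days of 2.08 ± 0.29 (adjusted p = 0.00774) that was lost when either 2.5-day library was left out (adjusted p = 0.0976 and 0.0916). Wnt16 rested on 1 library in Cre- EDL after 8.5 days, with 231 reads against 49 in the other, so its log2 fold change in Cre+ EDL was -1.03 ± 0.54 with both libraries, -1.79 (adjusted p = 0.00511, called) without the library of 49 reads and 0.61 without the library of 231 reads. Wnt10a (4 to 25 reads) and Wnt10b (17 to 75 reads), which act through β-catenin in fat and skin, were too low for small changes to be detectable at this depth. Their 95% intervals in EDL after 2.5 days ran from -1.78 to 0.62 and from -1.55 to 0.72.

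In SOL, 1 ligand, Wnt4, was called lower after 2.5 days, where 0.345% of genes tested were called higher and 0.039% lower. After 8.5 days none of the 10 was called by edgeR or by DESeq2, 2 had an unadjusted p below 0.05 (Wnt4 and Wnt9a), and 0.332% of genes were called higher and 0.299% lower.

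After 5.5 days, Wnt4 was 9.61 and 10.03 FPKM in Cre- and 6.29 and 4.33 in Cre+ EDL. The groups did not overlap, and the library with 1686 Pou5f1 reads had the lower value of the Cre+ pair. This order did not hold at all times. After 2.5 days the Cre+ library with more Pou5f1 reads had the higher Wnt4, in EDL (1.95 against 1.50 FPKM) and in SOL (0.441 against 0.317). After 8.5 days in both muscles, and in SOL after 5.5 days, it had the lower. The log2 fold change of -1.03 ± 0.30 was not called (adjusted p = 0.226), nor was any of the other 9 ligands, where 0.304% of 15478 genes tested were called. At an unadjusted p below 0.05 there was 1 ligand, Wnt4, and DESeq2 on these 4 libraries alone called it (-1.01, adjusted p = 0.000345). In SOL, Wnt4 was 1.58 and 0.747 FPKM in Cre- and 1.43 and 1.15 in Cre+ muscles, a log2 fold change of 0.08 ± 0.32. No ligand was called there by edgeR or DESeq2, none had an unadjusted p below 0.05, and 0% of genes were called, with 597 genes at an unadjusted p below 0.05. The change of Wnt4 in EDL at 5.5 days differed from the mean of its changes at 2.5 and 8.5 days by 1.50 on the log2 scale (adjusted p = 0.0409), and it was the 1 ligand called in that comparison, where 2.62% of genes were called. With 1 library left out at a time, the difference ran from 1.21 to 1.74 and adjusted p from 0.0219 to 0.308. The call was lost without the first Cre+ or either Cre- library of 5.5 days, the first Cre- or the second Cre+ library of 2.5 days, or either first library of 8.5 days. The Cre+ libraries of 5.5 days also differed in OSKM, as given above, and the part of that in the difference was not tested.

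Cdkn1a, which encodes the cell cycle inhibitor p21, and E2f1, a transcription factor of the cell cycle, were looked at because the study examined p21 together with Wnt4. Both were higher in Cre+ EDL, Cdkn1a by 2.61 ± 0.21 and 2.09 ± 0.21 and E2f1 by 1.14 ± 0.26 and 1.00 ± 0.27 after 2.5 and 8.5 days, all called. The 8.5-day call of E2f1 was lost without the first Cre- library (adjusted p = 0.141) or the first Cre+ library (adjusted p = 0.201). Cdkn1a had 8145 and 11788 reads in Cre+ EDL after 2.5 days and 1348 and 1181 in Cre- EDL. In SOL after 2.5 days, where Wnt4 was called lower, Cdkn1a had between 2109 and 3159 reads in Cre+ and between 1084 and 1212 in Cre-, a log2 fold change of 0.90 ± 0.20 (adjusted p = 0.0942). In SOL after 8.5 days it had 9490 and 6833 reads in Cre+ and 3441 and 3402 in Cre-, a log2 fold change of 0.86 ± 0.20 (adjusted p = 0.113). Neither was called, and Wnt4 of the Cre+ libraries lay below that of the Cre- libraries without overlap on both days. After 5.5 days the Cre+ EDL libraries had 1981 and 8709 reads of Cdkn1a, in the order of their Pou5f1 reads. Over all 24 libraries, which share muscle, genotype and day, Pearson's r of log2 CPM is given as a description. It was -0.13 for Wnt4 and Cdkn1a and -0.14 for Wnt4 and E2f1. This r pools EDL and SOL, which differ in Wnt4, and none was taken within a muscle. Pooled over all days, 5.5 days included, the medians in Cre- and Cre+ EDL were 20.5 and 115 FPKM for Cdkn1a and 9.82 and 2.28 for Wnt4. In SOL they were 24.9 and 31.3 for Cdkn1a and 1.37 and 1.27 for Wnt4. Within days, the ratio of mean Wnt4 FPKM of Cre+ to Cre- in SOL was 0.360, 1.11 and 0.579 after 2.5, 5.5 and 8.5 days. For Cdkn1a in SOL it was 2.07, 0.895 and 1.86.

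**Figure D5:**
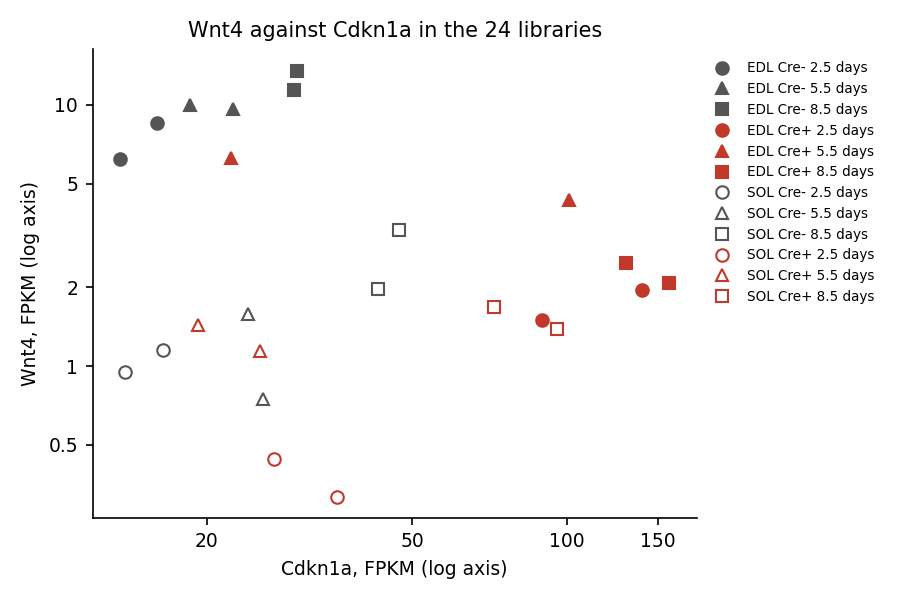
Wnt4 against Cdkn1a in FPKM (both axes log) in the 24 libraries, with Cre- in grey, Cre+ in red, EDL filled and SOL open, and a symbol for each time. Cre+ EDL libraries of 2.5 and 8.5 days lie at high Cdkn1a and low Wnt4, and of the Cre+ EDL pair of 5.5 days 1 lies beside the controls in Cdkn1a.

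The receivers of the signal were taken from lists of pathway genes. The counts of these lists in Cre+ EDL stand against 13.8% of all genes tested called higher and 10.2% lower after 2.5 days, and 7.63% and 6.5% after 8.5 days. Of 10 Frizzled receptors, 1 was lower in Cre+ EDL at both times, a share near that of all genes. It was Fzd7, a receptor known from satellite cells, with -0.93 ± 0.21 after 2.5 days (adjusted p = 0.00534) and -0.73 ± 0.21 after 8.5 days (adjusted p = 0.0312). The first call was lost without the second Cre+ library of 2.5 days (-0.68, adjusted p = 0.0709), and the second without either Cre- library or without the first Cre+ library (adjusted p from 0.0858 to 0.282). Fzd9 and Fzd4, the most abundant members, were not called. Of 7 co-receptors, Ptk7 was lower after 2.5 days (-0.70 ± 0.23, adjusted p = 0.0407), a call lost when any 1 of the 4 libraries was left out (adjusted p from 0.0827 to 0.183), and Ryk and Lrp5 were not called. Wls and Porcn, which carry and lipidate Wnt proteins for secretion, were not called, with 0.09 ± 0.18 for Wls and -0.13 ± 0.14 for Porcn after 2.5 days. None of the 8 tested R-spondins, Lgr receptors and E3 ligases, which set how many receptors reach the surface, was called in Cre+ EDL. Rspo3, the most abundant of them with Lgr4, was 0.07 ± 0.23 after 2.5 days.

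Of 10 secreted Wnt inhibitors tested, 1 was higher and 1 lower in Cre+ EDL after 2.5 days, near the shares of all genes (13.8% and 10.2%). Sfrp1, a decoy that binds Wnt proteins, was 0.581 and 0.341 FPKM in Cre- and 1.39 and 2.85 in Cre+ muscles (log2 fold change 1.86 ± 0.35, adjusted p = 0.00202). Dkk3, a divergent member of the Dickkopf family, was 3.89 and 4.25 in Cre- and 2.03 and 1.65 in Cre+ muscles (-1.47 ± 0.31, adjusted p = 0.00419). It was lower again after 8.5 days (-1.54 ± 0.31, adjusted p = 0.00570). The Cre+ EDL libraries were also below the Cre- ones after 5.5 days, though not called. The ratio of mean FPKM was 0.452, 0.268 and 0.390 after 2.5, 5.5 and 8.5 days. In SOL, Dkk3 was above the controls in Cre+ after 2.5 and 5.5 days (1.33 and 1.36) and overlapped them after 8.5 days, never called. Without the second Cre+ library of 2.5 days the Dkk3 call was lost (-1.29, adjusted p = 0.0551). Wif1 and Frzb, the most abundant inhibitors, were not called.

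Of the 17 genes of the β-catenin core, 1 rose and 1 fell in Cre+ EDL after 2.5 days and 3 rose after 8.5 days, where 13.8% of all genes were called higher and 10.2% lower after 2.5 days and 7.63% higher after 8.5 days. Tcf7, a DNA-binding partner of β-catenin that is also its target, was 0.566 and 0.360 FPKM in Cre- and 6.16 and 14.9 in Cre+ EDL after 2.5 days (4.16 ± 0.48, adjusted p = 8.72e-05), and 0.393 and 0.351 against 4.02 and 1.86 after 8.5 days (2.79 ± 0.47, adjusted p = 0.00204). Btrc, which marks β-catenin for degradation, rose after 8.5 days (0.70 ± 0.09, adjusted p = 0.000479). Of 12 feedback targets of β-catenin, Tcf7 and Sp5 were higher at both times, and Axin2, the target most used as a readout, was -0.26 after 2.5 days and -0.25 after 8.5 days, neither called. Sp5 rested on 14 to 29 reads in Cre+ and 0 to 4 in Cre- EDL, and its call after 8.5 days was lost without any 1 library. That after 2.5 days was lost without the first Cre- library (adjusted p = 0.157) or the second Cre+ library (adjusted p = 0.187). Tcf7l1, a repressive partner of β-catenin, was the member that fell after 2.5 days (-0.61 ± 0.17, adjusted p = 0.0161), a call lost without either Cre- library or without the second Cre+ library (adjusted p from 0.0513 to 0.118). The lists share Tcf7, so their counts are not independent.

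Of 9 planar polarity genes, 3 rose after 2.5 days, where 13.8% of all genes were called higher. These were Celsr1 (4.56 ± 0.82, adjusted p = 0.00142), Vangl1 (1.33 ± 0.21, adjusted p = 0.000706) and Daam1 (0.91 ± 0.12, adjusted p = 0.000241), which act on the cell's polarity and on actin, while Prickle1 was not called. After 8.5 days Vangl1 alone was called (0.80 ± 0.21, adjusted p = 0.0232), and it was lost without the first library of either genotype (adjusted p = 0.136 and 0.181). Of 10 genes of the Yap pathway and its targets in the table, Tead4 and Wwtr1 rose after 2.5 days (1.39 ± 0.27 and 0.84 ± 0.19) and Tead1 was lower at both times (-0.50 ± 0.16 and -0.73 ± 0.16), the first at the edge of the fold threshold and lost under most other settings. The Wwtr1 call was lost without the second Cre+ library (0.56, adjusted p = 0.0910), and the 8.5-day call of Tead1 without the first Cre- or the first Cre+ library (adjusted p = 0.0840 and 0.0959). Ctgf and Cyr61, targets of Yap, were not called at either time. In SOL no gene of these receptor, inhibitor, core, polarity and Yap lists was called at 2.5 or 8.5 days, and none in either muscle at 5.5 days, where few genes of any kind were called (59 and 97 of 15372 in SOL, and 47 in EDL and 0 in SOL of 15478 at 5.5 days).

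Marker genes of other cells moved in the same muscles. In Cre+ EDL after 2.5 days, 3 of 6 fast fibre markers, 4 of 6 endothelial markers and 2 of 6 smooth muscle and pericyte markers were lower, and 1 of the last was higher, where 10.2% of all genes were called lower and 13.8% higher. The summed level of the fast fibre markers was 66145 to 73227 FPKM in Cre- and 40265 to 48647 in Cre+ EDL after 2.5 days. That of the endothelial markers was 87.3 to 103 in Cre- and 77.9 to 80.0 in Cre+. After 8.5 days the endothelial sums overlapped, at 93.6 to 108 in Cre- and 99.8 to 112 in Cre+ EDL. The fast fibre sums that day were 63030 to 67971 in Cre- and 43977 to 50863 in Cre+ EDL. None of the 6 fibroblast or 6 satellite cell markers was called in EDL, but their sums separated the genotypes after 8.5 days, at 1099 to 1135 FPKM in Cre- and 1334 to 1764 in Cre+ for fibroblasts and at 13.8 to 16.7 and 20.2 to 21.9 for satellite cells. The tendon sum did so too, at 471 to 581 FPKM in Cre- and 792 to 915 in Cre+, with none of 5 markers called. The sums of these lists also separated in EDL after 5.5 days. Fibroblasts had 351 to 414 FPKM in Cre- and 497 to 770 in Cre+, satellite cells 12.3 to 12.7 and 13.4 to 15.4. Tendon had 258 to 365 and 436 to 545. In SOL after 2.5 days the fibroblast sum separated too (489 to 500 and 677 to 762). These sums were not scaled by TMM, whose factors in EDL after 8.5 days were 1.15 and 1.07 in Cre+ and 0.980 and 0.953 in Cre-. Among the denervation genes, Ncam1 and Runx1 were higher and Chrna1 was lower after 2.5 days, and Ncam1 was higher after 8.5 days. Their sum was 18.1 to 22.6 FPKM in Cre- and 39.4 to 45.6 in Cre+ EDL after 2.5 days, and 20.3 to 21.2 and 26.5 to 40.3 after 8.5 days. Of the 3 epithelial markers tested, Krt8 was higher after 2.5 days, and the sum of all 6 was 0.275 to 0.296 FPKM in Cre- and 5.16 to 6.39 in Cre+ EDL. Liver genes were lower in Cre+ after 8.5 days, 5 of 6 in EDL and 6 of 6 in SOL. There 6.5% and 0.299% of all genes were called lower. Their sums that day were 4.53 to 6.30 FPKM in Cre- EDL and 0.557 to 0.759 in Cre+ EDL. In SOL they were 16.1 to 85.1 in Cre- and 0.628 to 0.867 in Cre+. After 2.5 days the Cre- sums were 0.718 to 0.907 in EDL and 0.455 to 0.457 in SOL. The Cre- libraries of 8.5 days, the controls of the 8.5-day comparisons, thus had the highest liver sums of all groups. No marker of fibres, endothelium or pericytes was at 0 in any library. Chrng, Epcam, Krt8, Krt5 and Krt14 were at 0 in some or all libraries, and the liver genes Fgb, Ttr, Serpina1c and Apob in some. The part of these cells in the changes of the Wnt ligands was not tested.

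The genes whose levels followed Wnt4 most closely over the 24 libraries, by Pearson's r of log2 CPM among 11330 genes with a mean of at least 1 FPKM, were Rsc1a1, Ddi2, Bsg, Cdc42bpg, Ksr1, Arl3, Rnf123, Stat5b, Slc16a10 and Sephs1, with r from 0.94 to 0.90. Rsc1a1 and Ddi2 overlap on the same strand of chromosome 4, so they count once. Those that ran against it most were Micu2, Krt222, Cidea, Smad2 and Nln, with r from -0.93 to -0.90. The libraries share muscle and genotype, and Bsg, which encodes a partner of lactate transporters, had medians of 420 FPKM in Cre- EDL and 247 in Cre- SOL. With Spearman's rank correlation in place of r, 3 of the 10 and 2 of the 5 stayed in the lists, and over the 16 libraries of 2.5 and 8.5 days 5 and 3 did. Of the other ligands, Wnt16 came closest to Wnt4 (r = 0.63), then Wnt10a (0.53) and Wnt9a (0.49), and Wnt5b ran opposite (-0.40).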

How the data were processed

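Polyadenylated RNA of 24 whole muscles was sequenced by the authors as stranded single-end reads. Reads were aligned with STAR 2.5.3a to mm10, and the authors deposited raw counts of unique reads per RefSeq gene made with HOMER. FastQC 0.11.2 is also named in the submitters' processing notes. Whether counting used the strand is not given in the sources used here.

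From these counts, genes with at least 10 counts in enough libraries (edgeR's filterByExpr) were tested with edgeR 4.0.16 in R 4.3.3 (TMM, quasi-likelihood test, Benjamini-Hochberg adjustment). The comparisons of 2.5 and 8.5 days were fitted on their 16 libraries, and those with 5.5 days, or of EDL against SOL in Cre- mice, on all 24 libraries. A call needed an adjusted p below 0.05 and a log2 fold change beyond 0.5. FPKM was computed from the counts, the exon length in the table and the total count. Correlations used log2 CPM with a prior count of 2. The alternatives were DESeq2 1.42.0, other scalings and filters, other sets of libraries, fits with the library number as a block, and fits without 1 library. The steps were tested on simulated data.

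EDL and SOL libraries of 1 genotype and day with the same number deviated together from their group means (r from 0.173 to 0.445 in 6 of 6 groups). The numbers were therefore taken to pair the muscles in the fits with a block. The main fits, that of EDL against SOL in Cre- mice included, left this pairing out. Named were the 10 ligands, in each pathway list the 2 most abundant genes and the 3 with the largest called change in EDL at 2.5 or 8.5 days, Cdkn1a, E2f1, the OSKM genes, and the 10 genes most positively and 5 most negatively correlated with Wnt4. The members and lists were chosen with earlier results of these data known.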

Additional observations from a re-analysis of the deposited data

Results flagged for a closer look

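The change of Wnt4 in Cre+ EDL after 5.5 days differed from the mean of its changes after 2.5 and 8.5 days by 1.50 on the log2 scale (edgeR, adjusted p = 0.0409), a difference between time points under the same contrast. The call was lost with the library number as a block (adjusted p = 0.0953) and without any 1 of 7 of the 12 libraries (adjusted p up to 0.308). Pou5f1, a gene of the OSKM cassette, had 64 and 1686 reads in the Cre+ EDL libraries of 5.5 days, 1129 and 4206 in those of 2.5 days and 3683 and 5439 in those of 8.5 days, and its part in the difference was not tested.

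For 3 ligands, Wnt9a, Wnt2 and Wnt16, a muscle had both Cre+ libraries above both Cre- libraries on 1 day and below them on another, on the FPKM scale. These differences between days were not tested. With FPKM scaled by TMM, Wnt9a in SOL after 5.5 days was 6.54 and 7.07 in Cre+ and 6.58 and 6.59 in Cre-. Wnt16 in SOL after 2.5 days was 0.353 and 0.316 in Cre+ and 0.355 and 0.276 in Cre-. Both then overlapped. Wnt2 in SOL after 5.5 days rested on 10 and 10 reads in Cre+ and 8 and 6 in Cre-. The ratio of the mean FPKM of Cre+ to Cre- for Wnt9a in SOL was 0.634 after 2.5 days, 1.08 after 5.5 days and 0.695 after 8.5 days. For Wnt2 it was 1.74 in SOL after 5.5 days and 0.747 after 8.5 days, and in EDL 1.71 after 2.5 days and 0.727 after 8.5 days. For Wnt16 in SOL it was 1.19 after 2.5 days and 0.733 after 8.5 days. No outlier test was made, since each group held 2 libraries.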

How the results depend on the processing

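The fall of Wnt4 in Cre+ EDL was called under every alternative tried, with log2 fold changes from -2.43 to -2.09 after 2.5 days and -2.65 to -2.45 after 8.5 days, and from -2.61 to -2.21 and -2.82 to -2.46 with 1 library left out. No result changed its direction past the threshold. In SOL after 2.5 days the count of ligands called was 2 with DESeq2 (same or 4 libraries) and with all 24 libraries in the fit, 0 with the replicate block, and 0 to 0 with 1 library left out. Wnt4 there was -1.63 with the block (adjusted p = 0.180) and -1.88 to -1.41 with 1 library left out. In EDL after 5.5 days, DESeq2 on 4 libraries called 1 ligand, Wnt4 (-1.01, adjusted p = 0.000345). The difference of the Wnt4 change between muscles after 8.5 days was -1.80 by DESeq2 (adjusted p = 0.000801) and without the filter (adjusted p = 0.0190), -1.84 with the block (adjusted p = 0.00810), and -2.28 to -1.44 with 1 library left out, called without the first Cre- SOL library (adjusted p = 0.0415). The difference of the 5.5-day change was 1.48 with the block (adjusted p = 0.0953) and 1.21 to 1.74 with 1 library left out. With 1 library left out, the count in EDL was 2 to 3 after 2.5 days and 3 to 4 after 8.5 days, and Wnt4 in SOL after 5.5 days was -0.34 to 0.71. The cause of these changes was not tested.

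DESeq2 and edgeR differed most in the number of genes called where few were: 370 and 59 in SOL after 2.5 days, 171 and 97 in SOL after 8.5 days, 172 and 47 in EDL after 5.5 days, 1457 and 654 and 347 and 91 for the differences between muscles after 2.5 and 8.5 days, 887 and 405 for the difference of the 5.5-day change, and 365 and 115 between days in Cre- EDL. With the total count as the scale, the share of higher calls moved from 85.1% to 95.3% in EDL after 5.5 days, from 79.1% to 92.0% for the difference between muscles after 2.5 days, from 25.9% to 11.7% for the 5.5-day change and from 46.6% to 36.6% between muscles. Cre+ and Cre- libraries of the same number did not deviate together (r from -0.169 to 0.0578), so in those comparisons they share only a number. Wnt5b in EDL after 8.5 days was lost with 4 libraries in the fit (adjusted p = 0.0808), and Wnt2 between days in Cre- EDL with the block (adjusted p = 0.0675).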
